A study of Mus musculus with 5 samples.

Results

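A set of 9 transcription factors and coregulators that define brown adipocytes was followed in brown adipose tissue (BAT) of mice lacking ATF4 in thermogenic adipocytes: *Pparg*, *Ppara*, *Esrra*, *Prdm16*, *Ppargc1b*, *Ebf2*, *Cebpa*, *Zfp516* and *Irf4*. They were chosen by name for their known role in brown fat, and are 9 of the 52022 mouse genes to which the transcripts of the libraries were assigned. RNA was sequenced from 3 ATF4 BKO mice (*Atf4* fl/fl with a *Ucp1*-driven Cre transgene) and 2 WT littermates, which carried the floxed *Atf4* allele without Cre. All mice were described as C57Bl/6J males of 10 to 12 weeks, fed ad libitum, held at 30 °C for 7 days and then exposed to 4 °C for 3 days. Because Cre follows the *Ucp1* promoter, cells of the tissue other than thermogenic adipocytes retain *Atf4*, and no library from mice kept warm was analysed here. Total estimated counts per library ranged from 24698337 to 31558111 in ATF4 BKO and from 30996438 to 32452751 in WT mice.

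Brown adipocyte identity is held by a small network of DNA-binding proteins. PPARγ (*Pparg*) and C/EBPα (*Cebpa*) drive adipocyte differentiation in general, EBF2 opens brown-specific enhancers to PPARγ, and PRDM16 is recruited to these sites as a coregulator that favours brown over muscle and white programs. PPARα, ERRα (*Esrra*) and the coactivator PGC-1β (*Ppargc1b*) sustain fatty acid oxidation and mitochondrial genes, while the zinc finger protein ZFP516 and the interferon regulatory factor IRF4 are induced by cold and act at thermogenic genes such as *Ucp1*. ATF4, the factor deleted here, is a basic leucine zipper protein of the integrated stress response and is not itself an identity factor.

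The labels were first set against the data. *Atf4* gave 32.6, 52.6 and 23.5 CPM (counts scaled to a common library total with the TMM factors of edgeR) in ATF4 BKO replicates 1, 2 and 3, and 286 and 226 CPM in WT replicates 1 and 2. The deleted gene was thus lower in each knockout library than in both WT libraries, by a log2 fold change of -2.82 (SE 0.34), with an adjusted p of 0.671 by edgeR's quasi-likelihood test and 9.7e-12 by DESeq2. The tissue was recognisable as BAT in all libraries: 10 brown adipocyte markers summed to between 28740 and 33500 TPM (counts per length of transcript, scaled to a common total), and *Ucp1*, the uncoupling protein of brown fat, reached 9427, 8039 and 9754 TPM in ATF4 BKO and 8372 and 10072 TPM in WT mice.

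Several libraries stood apart from their labels or from the rest. ATF4 BKO replicate 1 held 4598 counts of *Xist*, the RNA of the inactive X chromosome, against at most 7 in the other 4 libraries, and 0 counts of the Y-linked *Ddx3y* against at least 1287, although the mouse was described as male. Skeletal muscle markers (22 genes) summed to 2376 TPM in WT replicate 2 and 156 TPM in WT replicate 1, against 72.2 to 77.2 TPM in the 3 ATF4 BKO libraries. Of these, 21 were tested and all were lower in ATF4 BKO (median log2 fold change -6.44), 19 without overlap (10.6% of all genes lay below in this way) and 10 called by DESeq2, with *Myl1* the most abundant. Without WT replicate 2 this median was -2.14, and within prefix S1 it was -2.23. Sample names carried the prefix S1 (ATF4 BKO replicates 1 and 2, WT replicate 1) or S2 (ATF4 BKO replicate 3, WT replicate 2), whose meaning is not given in the sources used here.

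No difference between genotypes was called for any of the 9 identity factors. By edgeR, 0 of 9 had an adjusted p under 0.05, as did 1 of all 16450 genes tested (0.00608%, the calcium channel gene *Cacna1i*). DESeq2 also called 0 of 9, against 121 genes or 0.736% of all. Without adjustment, 1 member (*Irf4*) passed 0.05 in the edgeR fit, beside 5.23% of all genes. Of the 9 log2 fold changes, 5 were above and 4 below 0, and their median was 0.004, beside 0.008 over all genes. This median ranged from -0.21, in TPM, to 0.07, with the mean level of the muscle markers added to the fit (the muscle covariate), over the alternatives, and was -0.12 without WT replicate 1, 0.065 without WT replicate 2, and -0.037, -0.080 and -0.060 without ATF4 BKO replicates 1, 2 and 3. With 3 against 2 mice, an exact permutation test of a single gene cannot give a two-sided p below 0.2, so tests rest on the fit across genes. In whole tissue, fewer adipocytes and less RNA per adipocyte cannot be told apart.

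**Figure D1:**
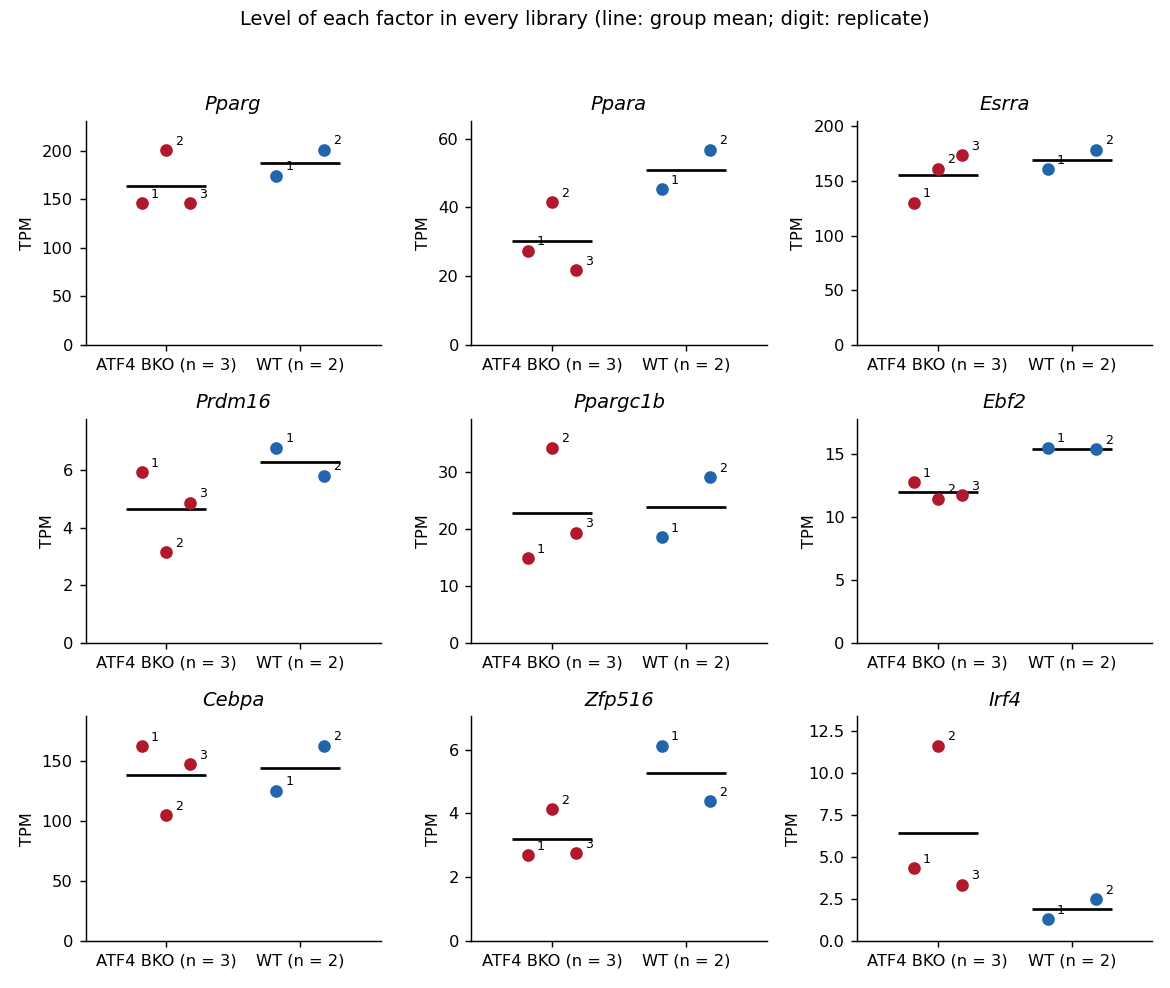
TPM of the 9 identity factors in each library (points, numbered by replicate; red, 3 ATF4 BKO; blue, 2 WT; black line, group mean; each axis starts at 0). All 3 ATF4 BKO points lie above both WT points for *Irf4* alone, and, on this scale but not in CPM, below them for *Ppara*, *Ebf2* and *Zfp516*.

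**Figure D2:**
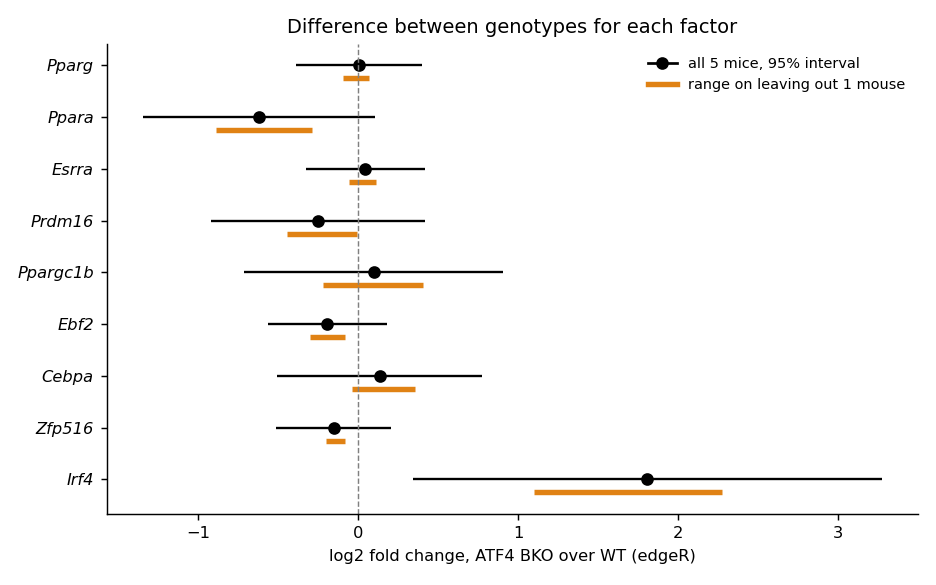
Log2 fold change of each factor, ATF4 BKO over WT, from the edgeR fit on 5 libraries (black point, with its 95% interval as a black line) and the range of values when 1 mouse is left out (orange). Every interval except that of *Irf4* (0.34 to 3.27) includes 0, and no adjusted p passed 0.05.

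The factors spanned a wide range of abundance, compared here as mean TPM over the 5 libraries, a scale that accounts for transcript length. *Pparg* (173 TPM), *Esrra* (161 TPM) and *Cebpa* (141 TPM) were the most abundant, and their ranges over libraries overlapped. *Ppara* followed at 38.5 TPM, with no overlap with *Cebpa*, then *Ppargc1b* at 23.2 TPM and *Ebf2* at 13.3 TPM, each overlapping the gene before it. *Prdm16* (5.30 TPM), *Irf4* (4.62 TPM) and *Zfp516* (4.02 TPM) were the least abundant, overlapped one another and lay below *Ebf2* in every library, except for *Irf4* in ATF4 BKO replicate 2 (11.6 TPM beside 11.4 TPM for *Ebf2*). The best known brown identity gene, *Prdm16*, thus stood at percentile 46.9 of the genes tested, and *Pparg* at percentile 96.2. Even the lowest count of any factor in any library, 155 for *Irf4* in WT replicate 1, was well above the filter of 10 counts.

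Among the nuclear receptors, *Pparg* (chr6:115360951-115490399, plus strand, GRCm38) had the smallest difference of the 9. It gave 217, 272 and 216 CPM in ATF4 BKO replicates 1, 2 and 3, and 222 and 246 CPM in WT replicates 1 and 2. The WT values fell inside the knockout range. Its log2 fold change was 0.00 (SE 0.16, 95% interval -0.39 to 0.40, edgeR adjusted p = 0.998), an interval of 0.764-fold to 1.32-fold.

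*Pparg* is transcribed from separate starts into PPARγ1, found in many tissues, and the adipocyte form PPARγ2, which has additional residues at its amino end. In the deposited transcript values, *Pparg-201* encodes the longer protein of 505 residues, and *Pparg-204* with *Pparg-202* encodes that of 475 residues. The longer form gave 97.7, 93.0 and 87.3 TPM in ATF4 BKO and 92.4 and 110 TPM in WT mice. The shorter form gave 41.7, 105 and 55.8 TPM in ATF4 BKO and 70.9 and 82.3 TPM in WT mice. PPARγ2 transcripts thus varied little over the 5 libraries, and most of the spread of *Pparg* between knockout mice lay in the PPARγ1 transcripts, highest in replicate 2 and lowest in replicate 1. The forms share all but their first exons, so the division rests on the reads from those exons. As a share of *Pparg* counts, PPARγ2 took 57.5% ± 11.5 (SD, n = 3) in ATF4 BKO and 54.5% ± 0.93 (SD, n = 2) in WT mice, and the groups overlapped (exact permutation test, two-sided p = 0.8).

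**Figure D3:**
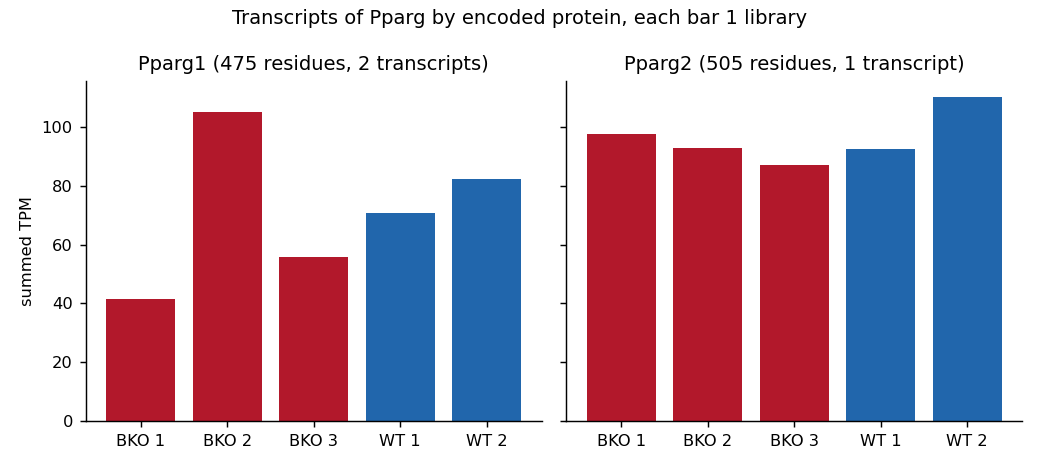
Summed TPM of the *Pparg* transcripts that encode 475 residues (PPARγ1, left) and 505 residues (PPARγ2, right), 1 bar per library on a common axis from 0 (red, ATF4 BKO; blue, WT). The PPARγ2 bars lie between 87.3 and 110 TPM, the PPARγ1 bars between 41.7 and 105 TPM.

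The starts of these forms differ in sequence, which is shown because the transcript values divide along it. Promoter sequence of 250 bases before each start was taken from RefSeq (GRCm38.p6), with 8 starts for 6 of the 9 factors. Each was searched on both strands for the TATA box, written TATAAA. The nuclear receptor site AGGTCA was searched likewise, with TCAAGGTCA (the ERR element, which contains it), TGACGTCA (cAMP response element), TGATGNAA (the C/EBP-ATF element through which ATF4 acts), TTGCNNAAT (C/EBP) and an EBF and an IRF motif. The stretch before the PPARγ2 start (chr6:115421816-115422065, plus strand) held none of these letters and was 40.8% G or C, beside a median of 52.4% over all promoters. That before the main PPARγ1 start was 63.6% G or C and held TATAAA on the minus strand, at base -29 and so printed as TTTATA (chr6:115362308-115362337), and AGGTCA at base -9. Capitals mark the match, and 12.4% of the 32851 mouse promoters in the table hold TATAAA and 14.0% AGGTCA. The other motifs are in 0.387% (ERR), 1.55% (cAMP), 3.45% (C/EBP-ATF), 2.11% (C/EBP), 0.779% (EBF) and 2.98% (IRF) of them.
PPARγ2 start: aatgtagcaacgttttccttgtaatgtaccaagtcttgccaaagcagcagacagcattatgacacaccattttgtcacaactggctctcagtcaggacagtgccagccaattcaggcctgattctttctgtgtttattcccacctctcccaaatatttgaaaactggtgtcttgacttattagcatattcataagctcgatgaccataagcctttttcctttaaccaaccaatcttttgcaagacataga
PPARγ1 start, bases around the TATA match: gcctgggctgctTTTATAtaagggacgcga

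The other nuclear receptors were *Ppara* and *Esrra*. *Ppara* (chr15:85734983-85802819, plus strand), the receptor for fatty acids that switches on their oxidation, was the factor with the most negative difference. It gave 67.0, 92.4 and 50.6 CPM in ATF4 BKO replicates 1, 2 and 3, and 84.5 and 130 CPM in WT replicates 1 and 2. The groups overlapped through ATF4 BKO replicate 2, which lay above WT replicate 1. The log2 fold change of -0.62 (SE 0.30, 95% interval -1.34 to 0.11, a level of 0.65-fold) did not pass (adjusted p = 0.911 by edgeR and 0.899 by DESeq2). Its size moved with single libraries: it was -0.29 without WT replicate 2, -0.89 without WT replicate 1, and -0.59, -0.85 and -0.43 without ATF4 BKO replicates 1, 2 and 3. It was 0.35 once the mean level of the muscle markers, itself higher in both WT libraries than in any ATF4 BKO library, entered the fit, so muscle content and genotype cannot be told apart here. Within the prefix S1 the difference was -0.10 and within S2, the pair that includes WT replicate 2, it was -1.36. Almost all *Ppara* counts (98.2% to 99.7% per library) came from transcripts that encode the same protein of 468 residues.

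*Esrra* (chr19:6910977-6921813, minus strand) encodes ERRα, an orphan receptor that partners PGC-1 coactivators at mitochondrial genes. It gave 217, 227 and 273 CPM in ATF4 BKO replicates 1, 2 and 3, and 225 and 238 CPM in WT replicates 1 and 2, so that both WT values fell among those of the knockout. Its log2 fold change was 0.04 (SE 0.15, 95% interval -0.33 to 0.42, edgeR adjusted p = 0.980). *Esrra* overlaps *Trmt112* on the opposite strand, and 3.47% of its 31-base words occur in other genes, so a small part of its counts is uncertain. The transcript *Esrra-203* is 1975 bases long in the deposited values, longer than its whole span in GENCODE M21 (6920079-6921051). The deposited transcript model thus differs from that of M21, and the 103 coding residues annotated in M21 may not hold for it. *Esrra-203* took 5.29%, 10.3% and 8.43% of *Esrra* counts in ATF4 BKO and 2.44% and 4.60% in WT mice. These shares did not overlap, as for 6 of the 21 transcripts tested. The two-sided exact permutation p was 0.2, the smallest possible here, and 0.7 after adjustment over the 21 transcripts.

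The promoters of *Ppara* and *Esrra* are shown with that of *Irf4*, the remaining factor with a large difference. The *Ppara* stretch (chr15:85735526-85735775, plus strand, 76.4% G or C) held none of the motifs. The *Esrra* stretch (chr19:6921809-6922058, minus strand, 68.4% G or C) held TGATGCAA, a form of the C/EBP-ATF element, at base -227. As 3.45% of all promoters hold that motif, 1 match among 8 is a description of the letters alone, and binding there was not tested. The *Irf4* stretch (chr13:30748983-30749232, plus strand, 63.6% G or C) held TATAAA at base -26 and none of the others. Capitals mark these matches.
Ppara: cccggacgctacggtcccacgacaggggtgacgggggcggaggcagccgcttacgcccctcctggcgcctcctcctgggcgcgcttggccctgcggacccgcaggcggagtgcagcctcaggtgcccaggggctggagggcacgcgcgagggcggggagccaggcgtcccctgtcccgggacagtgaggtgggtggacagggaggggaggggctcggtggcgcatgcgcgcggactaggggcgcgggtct
Esrra: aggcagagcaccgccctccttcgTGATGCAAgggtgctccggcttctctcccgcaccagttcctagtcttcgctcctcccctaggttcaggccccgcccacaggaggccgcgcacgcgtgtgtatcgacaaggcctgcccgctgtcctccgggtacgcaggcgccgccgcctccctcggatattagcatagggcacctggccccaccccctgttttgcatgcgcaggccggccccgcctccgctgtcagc
Irf4: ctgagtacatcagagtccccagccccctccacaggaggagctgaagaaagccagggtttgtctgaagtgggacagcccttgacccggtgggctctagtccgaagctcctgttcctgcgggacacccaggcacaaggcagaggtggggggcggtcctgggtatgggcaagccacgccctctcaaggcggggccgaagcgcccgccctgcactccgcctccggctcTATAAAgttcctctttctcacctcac

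The coregulators *Prdm16* and *Ppargc1b* varied more among the knockout mice than between the genotypes' means. *Prdm16* (chr4:154316125-154636873, minus strand) gave 34.4, 18.1 and 29.6 CPM in ATF4 BKO replicates 1, 2 and 3, and 34.05 and 31.04 CPM in WT replicates 1 and 2. Replicate 1 of the knockout lay above both WT mice and replicate 2 far below all others, so the groups overlapped. The difference was -0.25 on the log2 scale (SE 0.27, 95% interval -0.92 to 0.42, edgeR adjusted p = 0.942), and it was -0.01 without ATF4 BKO replicate 2. Without ATF4 BKO replicate 1 it was -0.45, and with the muscle covariate it was -0.79. Transcripts of 1274 to 1276 residues took 22.4%, 22.9% and 11.1% of *Prdm16* counts in ATF4 BKO and 40.7% and 22.5% in WT mice, with those of 1177 to 1178 residues taking most of the rest. Within each of these classes the transcripts differ by a few bases and the assignment of reads between them jumped from mouse to mouse, so single transcripts are not compared.

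*Ppargc1b* (chr18:61298136-61400431, minus strand), the PGC-1 family coactivator expressed together with *Ppargc1a* in brown fat, gave 49.7, 99.4 and 61.7 CPM in ATF4 BKO replicates 1, 2 and 3, and 52.4 and 78.9 CPM in WT replicates 1 and 2. Both extremes were knockout mice. On the log2 scale the difference was 0.10 (SE 0.33, 95% interval -0.71 to 0.91, edgeR adjusted p = 0.980) and took the other sign, -0.22, without ATF4 BKO replicate 2. It was -0.16 and 0.40 without WT replicates 1 and 2, 0.30 without ATF4 BKO replicate 1 and 1.07 with the muscle covariate. Its relative *Ppargc1a*, the cold-induced coactivator on the list of partners, was likewise highest in ATF4 BKO replicate 2 and next in WT replicate 2, with 12.5, 45.5 and 11.7 TPM in ATF4 BKO and 15.1 and 28.7 TPM in WT mice (log2 fold change 0.35, SE 0.57, edgeR adjusted p = 0.964).

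Of the DNA-binding factors, *Ebf2* and *Zfp516* were slightly lower in the knockout and *Cebpa* slightly higher, within the spread. *Ebf2* (chr14:67233292-67430918, plus strand) gave 59.2, 44.7 and 51.3 CPM in ATF4 BKO replicates 1, 2 and 3, and 61.2 and 57.0 CPM in WT replicates 1 and 2. Only replicate 1 of the knockout reached the WT range. Its difference was -0.19 on the log2 scale (SE 0.15, 95% interval -0.57 to 0.18, edgeR adjusted p = 0.932). It kept this sign in all 15 alternatives tried, between -0.43 and -0.08, as did *Prdm16* and, with a positive sign, *Irf4*. Of the 31-base words of *Ebf2*, 5.43% occur in other genes, mainly *Gm10860*.

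*Zfp516* (chr18:82910663-83005314, plus strand) gave 18.6, 20.2 and 16.6 CPM in ATF4 BKO replicates 1, 2 and 3, and 19.9 and 21.2 CPM in WT replicates 1 and 2, an overlap through replicate 2 of the knockout. The log2 fold change was -0.15 (SE 0.15, 95% interval -0.51 to 0.21, edgeR adjusted p = 0.942). On leaving out 1 mouse it ranged from -0.20, without ATF4 BKO replicate 2, to -0.080, without ATF4 BKO replicate 3. In TPM the difference was further from 0, at -0.58 on log2(TPM + 1), and its TPM of 2.69, 4.13 and 2.75 in ATF4 BKO lay below the 6.13 and 4.39 of WT mice. The long transcripts *Zfp516-201* and *Zfp516-202* (7703 and 7725 bases), which encode the same 1157 residues, held at least 95.2% of its counts in each library, and their joint TPM of 2.56, 3.15 and 2.34 in ATF4 BKO overlapped the 3.06 and 3.52 of WT mice. The short *Zfp516-205* (924 bases) gave 0, 0.048 and 0.42 TPM in ATF4 BKO and 1.23 and 0.61 TPM in WT mice, from 23.2 counts at most, and *Zfp516-206* (348 bases) gave 0, 0.81 and 0 TPM beside 1.84 and 0.26 TPM, from 7.14 counts at most. Of all counts of the gene, *Zfp516-201* took 30.98%, 44.0% and 96.0% in ATF4 BKO and 10.6% and 5.86% in WT mice (exact permutation two-sided p = 0.2, adjusted 0.7). *Zfp516-202* took 68.6% in ATF4 BKO replicate 1 and 2.27% in replicate 3, so the division between these long transcripts jumped from mouse to mouse and is uncertain.

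Scale mattered for such small differences. In TPM, 24.9% of all genes had each ATF4 BKO value below both WT values and 3.02% had each above, against 10.6% below and 8.95% above in CPM after TMM scaling. *Ebf2*, *Ppara* and *Zfp516* lay below WT without overlap in TPM and 0 of the 9 factors did so in CPM. With length-scaled counts after TMM scaling, *Zfp516* differed by -0.56 and all genes together had a median of 0.013. The cause of these shifts was not tested. On log2(TPM + 1), where *Ebf2* differed by -0.34, all genes together had a median of -0.12.

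*Cebpa* (chr7:35119293-35121928, plus strand) gave 313, 178 and 275 CPM in ATF4 BKO replicates 1, 2 and 3, and 208 and 257 CPM in WT replicates 1 and 2. Replicate 2 of the knockout was the lowest of all mice and replicate 1 the highest. The log2 fold change was 0.13 (SE 0.26, 95% interval -0.51 to 0.78, edgeR adjusted p = 0.970). It was -0.037 and 0.36 without ATF4 BKO replicates 1 and 2, and -0.07 on both TPM scales. Of its counts, 91.7%, 88.2% and 90.5% in ATF4 BKO and 87.0% and 88.1% in WT mice were assigned to *Cebpa-202*, annotated with a coding stretch of 159 residues, and the rest to *Cebpa-201*, which starts within bases of it and encodes the protein of 359 residues, so the division is uncertain (exact permutation two-sided p = 0.2, adjusted 0.7).

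*Irf4* (chr13:30749226-30766976, plus strand) was the factor with the largest difference. It gave 14.9, 43.4 and 14.3 CPM in ATF4 BKO replicates 1, 2 and 3, and 4.91 and 8.91 CPM in WT replicates 1 and 2. Every knockout mouse lay above both WT mice, a pattern shown by 8.95% of all genes, and replicate 2 stood well above the other knockout mice. The means were 24.2 ± 16.7 CPM (SD, n = 3) and 6.91 ± 2.83 CPM (SD, n = 2). The log2 fold change of 1.81 (SE 0.60, 95% interval 0.34 to 3.27, or 3.50-fold with an interval of 1.27 to 9.66) did not pass (adjusted p = 0.911 by edgeR's quasi-likelihood test and 0.105 by DESeq2). Without ATF4 BKO replicate 2 the log2 fold change was 1.10, without the library of unexpected sex, replicate 1, it was 2.06, and without WT replicate 2 it was 2.28. Within prefix S1 it was 2.36, within S2 it was 0.68, and with the muscle covariate it was 3.47. No 31-base word of *Irf4* occurs in another gene, and its main transcripts, of 449 to 450 residues, took 99.0% or more of its counts in every library.

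*Irf4* is also expressed by lymphocytes, plasma cells and macrophages, so markers of these cells were read in the same libraries. Macrophage markers (12 of 12 genes tested, all higher in ATF4 BKO, all overlapping, median log2 fold change 0.38) summed to 735, 1415 and 463 TPM in ATF4 BKO and 219 and 1260 TPM in WT mice, led by *Lyz2*. Their median turned on single libraries: it was 1.59 without WT replicate 2, -0.27 without WT replicate 1 and -0.024 without ATF4 BKO replicate 2, and 1.90 within prefix S1 and -1.23 within S2. Summed macrophage markers and *Irf4* were both highest in ATF4 BKO replicate 2 and both lowest in WT replicate 1. WT replicate 2 came next to ATF4 BKO replicate 2 in macrophage markers, and its *Irf4* lay between that of WT replicate 1 and those of the knockout mice. B cell markers (8 of 10 tested, median 0.34, but 0.68 without WT replicate 2, -0.029 without WT replicate 1 and 0.088 without ATF4 BKO replicate 1) summed to 6.90, 4.85 and 4.04 TPM in ATF4 BKO and 3.35 and 6.002 TPM in WT mice. Plasma cell markers (4 of 6 tested, not *Mzb1* or *Tnfrsf17*, median 0.23, but -0.23 without ATF4 BKO replicate 2, 0.59 without ATF4 BKO replicate 3 and 0.13 without ATF4 BKO replicate 1) summed to 4.36, 12.0 and 4.17 TPM in ATF4 BKO and 5.39 and 6.12 TPM in WT mice. Of those tested, 2 were higher and 2 lower in ATF4 BKO. *Sdc1* made up most of the sum, with 2.95, 9.39 and 3.08 TPM in ATF4 BKO and 3.65 and 4.44 TPM in WT mice. T cell markers (7 of 8 tested, median 0.22, but 1.34 without WT replicate 2, -0.33 without WT replicate 1, and 0.11 and 0.46 without ATF4 BKO replicates 1 and 2) summed to 5.31, 3.31 and 5.40 TPM in ATF4 BKO and 2.38 and 7.50 TPM in WT mice. Within prefixes S1 and S2 the medians were 0.63 and -0.26 for B cell and 0.40 and -0.65 for plasma cell markers. For T cell markers they were 0.91 and -0.12. No marker of these 4 cell types was at 0 in all libraries. edgeR and DESeq2 called 0 of them (0 at an unadjusted p under 0.05 by edgeR, beside 5.23% of all genes), and their part in the *Irf4* difference was not tested.

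**Figure D4:**
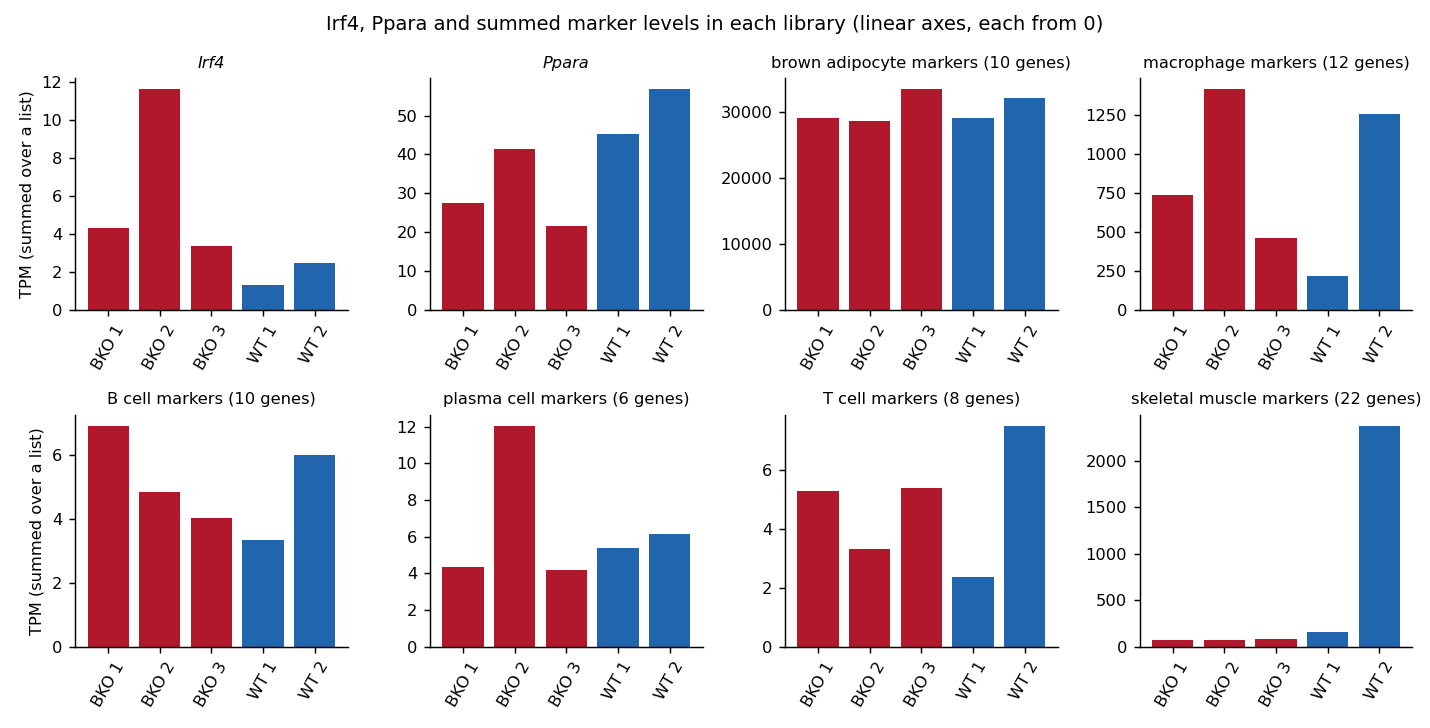
*Irf4*, *Ppara* and the summed level of marker genes for 6 cell types in TPM, 1 bar per library, each axis linear and from 0 (red, ATF4 BKO; blue, WT). *Irf4* is highest in ATF4 BKO replicate 2, and so is the plasma cell sum, of which *Sdc1* made 9.39 of 12.0 TPM there. Macrophage markers are highest in ATF4 BKO replicate 2 and WT replicate 2, and muscle markers in WT replicate 2.

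Genes with the profile most like that of a variable factor were sought by the root mean square difference of centred log2 CPM over the 5 libraries. For *Irf4* these were *Gpr141b* (0.22), *Klrb1b* (0.26) and *Gm15922* (0.28), each at low levels of at most 5.27 CPM. For *Ppara* they were *Hunk* (0.11), *Ect2* (0.12) and *Rnf213* (0.12). *Hunk* and *Ect2* were also low, at no more than 0.59 and 2.57 CPM, and *Rnf213* gave 53.1 to 113 CPM. These profiles are a description over 5 libraries and carry no test.

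Among the partners of the identity factors, such as the retinoid X receptors, thyroid hormone receptors, C/EBP and EBF relatives and the PRDM16 complex, no gene was called. Of 42 listed, 41 were tested (not *Foxc2*). edgeR and DESeq2 called 0, with 1 at an unadjusted p under 0.05 by edgeR, beside 5.23% of all genes. Of those tested, 20 were higher and 21 lower, with a median log2 fold change of -0.01. All ATF4 BKO values lay above WT for 6 (8.95% of all genes did so) and below for 4 (10.6%), and in TPM for 0 and 14 (3.02% and 24.9%). Those with the largest such differences were *Cebpd*, an early adipogenic factor, at 0.71 (SE 0.38), *Mecom*, the closest relative of *Prdm16*, at 0.41 (SE 0.22), *Esrrg*, a receptor of the ERR family, at -0.34 (SE 0.15), and *Nrf1*, a regulator of respiratory chain genes, at -0.27 (SE 0.16). The abundant corepressor gene *Ctbp1*, whose product binds PRDM16, gave 75.3, 84.3 and 83.1 TPM in ATF4 BKO and 102 and 92.9 TPM in WT mice, with a log2 fold change of -0.05 (SE 0.13), while *Zbtb7b*, which drives brown and beige genes, was at 0.09 (SE 0.17).

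Genes on which the factors act were read next. The 24 brown genes, among them *Ucp1*, *Cidea*, *Dio2* and *Ppara* itself, split evenly into 12 higher and 12 lower, with a median log2 fold change of 0.01. *Ucp1* was at 0.17 (SE 0.24) and the respiratory chain gene *Cox8b* at 0.17 (SE 0.21), and *Pank1*, a kinase of coenzyme A synthesis, was the 1 gene of 24 above WT in every knockout mouse (0.33, SE 0.18), as were 8.95% of all genes. On log2(TPM + 1) the median turned to -0.18, and in TPM 0 brown genes lay above WT in this way and 7 below, beside 3.02% and 24.9% of all genes. Of 14 genes typical of white fat, 11 were tested (not *Tcf21*, *Hoxc9* or *Hoxc10*), 7 were higher and 4 lower. In 2 of them every ATF4 BKO value was below WT, as in 10.6% of all genes: *Lep*, which encodes leptin, gave 0.719, 0.477 and 0.992 TPM in ATF4 BKO and 6.86 and 3.17 TPM in WT mice (log2 fold change -2.57, SE 0.73, adjusted p = 0.831 by edgeR and 0.0837 by DESeq2), and *Nnat* differed by -1.52 (SE 0.56). In TPM, 3 white genes lay below WT in this way and 0 above. The abundant *Retn* and *Dpt* overlapped between genotypes. By edgeR and DESeq2, 0 genes of these lists were called, and 2 white genes had an unadjusted p under 0.05 by edgeR, beside 5.23% of all genes.

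**Figure D5:**
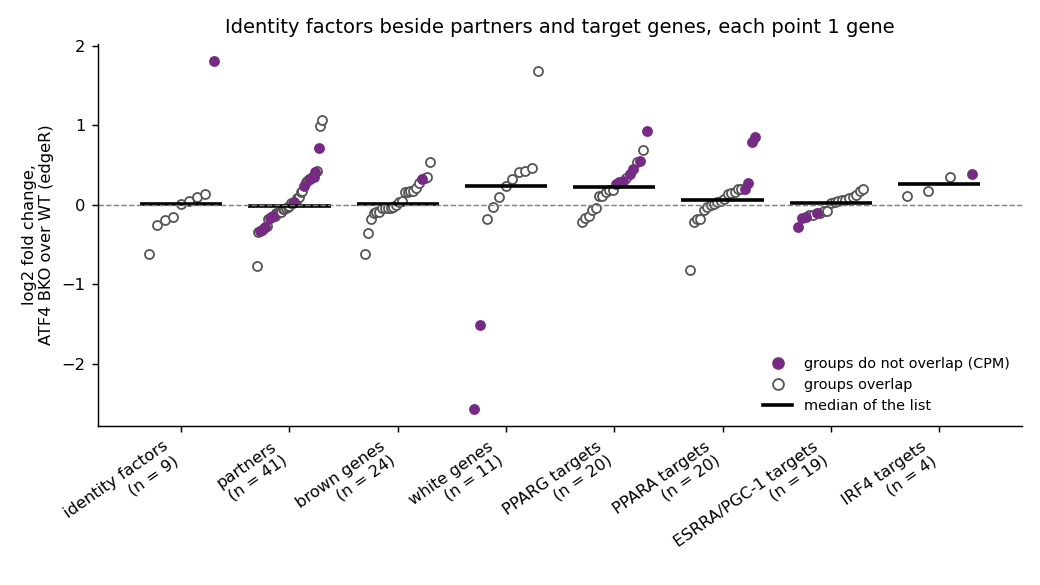
Log2 fold change of each tested gene (edgeR, ATF4 BKO over WT) in 8 lists, with the number tested under each name (filled, every ATF4 BKO value on one side of both WT values in CPM; open, overlapping; black line, median). Medians lie between -0.01 and 0.26, and edgeR called 0 of these genes.

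The targets of *Pparg* tended to lie slightly above 0: 15 of 20 were higher and 5 lower, with a median of 0.22, beside 8425 of 16450 genes and 0.008 over all. This median ranged from -0.01, on the TPM scale, to 0.34 over the alternatives, and was 0.12 without WT replicate 1 and 0.14 without ATF4 BKO replicate 3. In 7 of 20 every ATF4 BKO value lay above WT, as in 8.95% of all genes, led by *Scd1*, a fatty acid desaturase, at 0.94 (SE 0.34) and *Adipoq*, which encodes adiponectin, at 0.55 (SE 0.19). In TPM, 2 lay above WT in this way and 3 below, beside 3.02% and 24.9% of all genes. *Fabp4*, the most abundant, was at 0.26 (SE 0.21) and *Gpd1* at 0.19 (SE 0.35). Of the targets of *Ppara*, 13 of 20 were higher and 7 lower, with a median of 0.06. The sign of this median turned with the scale, to -0.099 on both TPM scales and -0.051 with library totals alone, and it was -0.065 with the muscle covariate, 0.12 and 0.14 without ATF4 BKO replicates 1 and 2, 0.18 and 0.093 without WT replicates 1 and 2, and 0.030 without ATF4 BKO replicate 3. In 4 of 20 every ATF4 BKO value lay above WT (8.95% of all genes) and in 0 below, but in TPM in 0 above and 3 below (3.02% and 24.9%). *Ehhadh*, of peroxisomal oxidation, one of these 4, was at 0.80 (SE 0.37), while *Hadhb* and *Fabp3*, the most abundant, were at 0.20 (SE 0.21) and -0.18 (SE 0.19).

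Targets of *Esrra* and the PGC-1 coactivators (19 of 20 tested) lay between -0.27 and 0.20, with 10 higher, 9 lower and a median of 0.02, which was -0.097 and 0.071 without WT replicates 2 and 1, and 0.050, 0.0049 and -0.080 without ATF4 BKO replicates 1, 2 and 3. In 4 every ATF4 BKO value lay below WT, as in 10.6% of all genes, among them *Nrf1* and *Cs*, which encodes citrate synthase (-0.17, SE 0.17). In TPM, 8 of 19 lay below WT in this way and 0 above, beside 24.9% and 3.02% of all genes, with a median of -0.16. *Atp5b* and *Cox5b*, subunits of the respiratory chain and ATP synthase, were at 0.12 (SE 0.20) and -0.07 (SE 0.16). Of 5 listed targets of *Irf4*, 4 were tested (not *Mstn*) and in CPM all were slightly higher (median 0.26, and 0.071 without WT replicate 1 and 0.12 without ATF4 BKO replicate 3), and for *Pnpla2*, the lipase that starts lipolysis, every ATF4 BKO value lay above WT (0.38, SE 0.26), as for 8.95% of all genes. On both TPM scales the *Irf4* target median turned to -0.053, and 0 of the 4 lay above or below WT without overlap. By edgeR and DESeq2, 0 targets on these lists were called, and 2 *Pparg* targets had an unadjusted p under 0.05 by edgeR, beside 5.23% of all genes.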

How the data were processed

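BAT RNA of 3 ATF4 BKO and 2 WT mice was analysed, 1 library per mouse. From stranded mRNA libraries, the authors made and deposited a table of estimated counts per transcript for each mouse with Kallisto 0.45.0 (version and the build mm10 per the submitters' processing notes), with no normalization between mice. The deposited tables also hold TPM, computed by the authors with the same tool from counts and effective transcript lengths. The transcript annotation is not given in the sources used here. The study's other workflow, by alignment, was not analysed here.

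Both units were summed per gene with GENCODE M21 (GRCm38), and the counts were rounded. Of 141450 transcripts, 138191 matched by identifier, and the other 3259 held 1.16% to 1.29% of the counts. The comparison of genotypes used edgeR 4.0.16 under R 4.3.3 (scaling by TMM, at least 10 counts in at least 2 mice, quasi-likelihood test, genotype as sole term, Benjamini-Hochberg threshold of 0.05). The SE is the log2 fold change over the root of F, and 95% intervals use the total degrees of freedom (3 residual, 3.06 prior). DESeq2 1.42.0, limma 3.58.1 on log2 TPM, other scalings, no filter, length-scaled counts, leaving out each mouse, blocks and a muscle covariate were alternatives. The fits were also tried on simulated data, and the outcome is not reported here. Shares of transcripts above 5% of a gene were compared by exact permutation. P-values measure the spread between these mice.

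The members and the lists of partners, targets and markers were chosen with earlier results of these data known. Of 224 listed symbols, 223 matched 1 gene (not *Atp5o*). Named are all members and, per list, the 2 genes of highest mean TPM and the 2 largest differences in each direction without overlap, with the 3 genes closest in profile to each member that ranged over more than 1 in log2 CPM. Some genes that this rule names are not reported here. *Ppargc1a*, *Cidea*, *Dio2* and the sex-linked genes were chosen after their values were seen, as were the classes of transcripts by coding length. No library repeated another (chi-square per degree of freedom of at least 52.9).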

Additional observations from a re-analysis of the deposited data

How the results depend on the processing

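Under 15 alternatives with a test, 0 of 9 factors were called each time, and their 135 log2 fold changes kept the reported sign in 114, with the lowest adjusted p at 0.105 (*Irf4*, DESeq2). *Prdm16*, *Ebf2* and *Irf4* kept their sign throughout, from -0.79 to -0.01, -0.43 to -0.08 and 1.10 to 3.47. The small differences of the others did not. *Pparg* reached -0.10 with library totals alone, -0.019 with length-scaled counts, -0.21 with limma on log2(TPM + 1), -0.21 with log2(TPM + 0.1), -0.0037 with the prefix as a block and -0.19 within prefix S2. *Ppargc1b* reached -0.11 on both TPM scales and -0.35 within prefix S2. *Esrra* reached -0.064 with library totals alone, -0.14 on both TPM scales and -0.020 within prefix S1. *Cebpa* reached -0.070 and -0.071 on the TPM scales. With the muscle covariate *Ppara* reached 0.35 and *Zfp516* 0.049, and, without a change of sign, *Ppargc1b* reached 1.07 and *Pparg* 0.32. On leaving out 1 mouse, the log2 fold change ranged from -0.097 to 0.065 for *Pparg*, -0.22 to 0.40 for *Ppargc1b*, -0.060 to 0.11 for *Esrra* and -0.037 to 0.36 for *Cebpa*, and the difference in the share of PPARγ2 from -2.25 to 9.15 percentage points. The median of all genes moved by -0.11 with library totals alone, -0.13 with log2(TPM + 1) and -0.18 with log2(TPM + 0.1). The causes of the changes of sign were not tested.

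The count of all genes called, 1 by edgeR, was 121 by DESeq2, 8 with no filter, 0 and 2 with limma on TPM plus a pseudocount of 1 and 0.1, 0 with the prefix block and 220 with the muscle covariate, and ranged from 0 to 23 on leaving out 1 mouse, the highest without WT replicate 1. Same-numbered libraries deviated with correlations of 0.05 and 0.20, so the labels' numbers were not taken as a pairing. With the replicate block, 0 genes were called and *Esrra* was at -0.062. With 3 against 2 mice, 95% intervals ran from 0.70-fold to 1.16-fold for *Zfp516*, with the smallest SE of the 9, and from 1.27-fold to 9.66-fold for *Irf4*, with the largest. Each factor had at least 155 counts in every library, and the part of depth in these intervals was not tested.

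The ranges of list medians given here cover the 15 alternatives with a test and not the values within a prefix. List medians over these alternatives ranged from -0.21 to 0.07 for the 9 factors, -0.17 to 0.08 for partners, -0.19 to 0.16 for brown genes, -0.15 to 0.92 for white genes, -0.10 to 0.18 for PPARA targets, -0.28 to 0.07 for ESRRA and PGC-1 targets and -0.05 to 0.30 for IRF4 targets. They ranged from -0.27 to 3.06 for macrophage, -0.33 to 1.73 for T cell, -0.03 to 0.79 for B cell, -0.23 to 1.14 for plasma cell, 0.13 to 1.53 for precursor, 0.15 to 0.62 for endothelial, 0.07 to 0.58 for Schwann cell, -0.03 to 0.32 for brown adipocyte and -7.70 to 0.34 for muscle markers. Some medians within prefix S2 lay outside these ranges: -0.48 for white genes, 0.21 for PPARA targets and 0.20 for ESRRA and PGC-1 targets. So did those of macrophage (-1.23), B cell (-0.26), plasma cell (-0.65), precursor (-0.77) and muscle markers (-8.28).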

Other observations

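Markers of endothelial cells, adipocyte precursors and Schwann cells lay mostly above 0 in the fit. Endothelial markers were higher in ATF4 BKO in 10 of 10 genes (median log2 fold change 0.36), 5 of them with every ATF4 BKO value above WT (8.95% of all genes), among them *Tek*, the angiopoietin receptor, at 0.44 (SE 0.15) and *Pecam1*, a junction protein, at 0.40 (SE 0.16). The abundant *Egfl7* was at 0.15 (SE 0.12) and *Cdh5* at 0.32 (SE 0.19). Adipocyte precursor and fibroblast markers were higher in 10 of 10 (median 0.34, but 0.82 without WT replicate 2, 0.13 without WT replicate 1 and 0.58 without ATF4 BKO replicate 3, and 1.07 within prefix S1 and -0.77 within S2), with *Pdgfrb*, a receptor of mural cells and precursors, above WT in every knockout mouse at 0.29 (SE 0.15). Schwann cell markers were higher in 5 of 6 (median 0.43, and 0.28 without ATF4 BKO replicate 1), among them *Sox10*, a factor of the glial lineage, at 0.73 (SE 0.29). Their summed TPM went the other way, with 198, 185 and 192 in ATF4 BKO below the 224 and 199 of WT mice. On that scale 24.9% of all genes lay below WT in this way. *S100b*, the most abundant, gave 122, 106 and 148 TPM in ATF4 BKO and 158 and 146 TPM in WT mice. The brown adipocyte markers were higher in 8 of 10 (median 0.17, and 0.32 and 0.086 without ATF4 BKO replicates 2 and 3), but on both TPM scales their median was -0.027, with 1 above and 2 below WT without overlap. edgeR and DESeq2 called 0 genes of these lists, with 3, 0, 1 and 1 at an unadjusted p under 0.05 by edgeR, beside 5.23% of all genes. In TPM, where the median gene lies lower in ATF4 BKO, 1 endothelial gene, 0 precursor genes and 1 Schwann gene were above WT in every knockout mouse, beside 3.02% of all genes.

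On the list of partners of the identity factors, *Klf15* and *Zbtb16*, both glucocorticoid-responsive factors, were chosen after their values were seen. *Klf15* gave 20.5, 43.8 and 45.7 TPM in ATF4 BKO and 12.4 and 25.9 TPM in WT mice (log2 fold change 1.07, SE 0.41, edgeR adjusted p = 0.911). *Zbtb16* gave 2.02, 26.0 and 4.23 TPM in ATF4 BKO and 4.80 and 6.88 TPM in WT mice, and so was high in ATF4 BKO replicate 2, as were *Irf4* and *Ppargc1b*.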
